A study of Mus musculus with 236 samples.

Results

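The genes described here are the LIF receptor and STAT3 pathway genes Lifr, Il6st, Jak1, Stat3, Socs3, Pim1, Pim3, Sgk1 and Bcl3. These 9 genes were chosen by name from the 39300 genes in the deposited table of UMIs (unique molecular identifiers, which count RNA molecules). RNA and chromatin contacts had been read together from single mouse embryonic stem cells by HiRES, and the RNA is used here. The cells belong to 1 female line derived from blastocysts of a C57BL/6J mother and a CAST/EiJ father. They were kept in serum with LIF (leukaemia inhibitory factor), the Gsk3 inhibitor CT99021 and the MEK inhibitor PD0325901, and then moved to a serum medium without the cytokine and both inhibitors on fibronectin. Cells at day 0.5 and at day 2.5 after this withdrawal form the groups, so both groups had already lost LIF. Undifferentiated cells kept with LIF are not analysed here.

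LIF binds the receptor chain encoded by Lifr, which pairs with gp130, the shared receptor chain of the interleukin 6 family, encoded by Il6st. The kinase Jak1 sits on the receptor tails and phosphorylates the transcription factor Stat3, which enters the nucleus and switches on target genes, among them Socs3, whose product shuts the receptor complex down again. In mouse embryonic stem cells this pathway sustains self-renewal in the naive state. Pim1, Pim3 and Sgk1 encode serine/threonine kinases and Bcl3 an atypical I-kappa-B protein that works with NF-kappa-B, and all have been described as genes that respond to LIF in these cells.

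STAT dimers bind the palindrome TTCNNNGAA, which reads the same on both strands. It was searched for in the RefSeq promoter windows (build GRCm38.p6) from 250 bases before to 50 bases after each annotated start. All 9 genes had at least 1 such window, with 16 windows between them. The palindrome was present in 1 window of Sgk1 and in that of Socs3, and 8.30% of all 32851 windows held it. The tighter form TTCCNGGAA, a subset of the same matches, was in none of the 16 windows and in 1.15% of all windows. The Sgk1 window is shown because Sgk1 had the largest rise of the 9 genes. It is the outermost of 6 Sgk1 windows, covers the 250 bases before the start (chr10:21881934-21882183, plus strand), and has the match in capitals (chr10:21881961-21881969):
Sgk1: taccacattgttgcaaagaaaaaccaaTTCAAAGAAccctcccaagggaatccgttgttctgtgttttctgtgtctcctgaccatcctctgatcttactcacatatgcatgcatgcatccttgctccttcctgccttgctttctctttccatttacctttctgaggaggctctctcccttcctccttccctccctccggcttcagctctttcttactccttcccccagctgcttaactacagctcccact
The Socs3 match is shown with its flanks (chr11:117969502-117969530, minus strand) because Socs3 is the pathway's own inhibitor:
Socs3: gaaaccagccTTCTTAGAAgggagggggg
Windows before annotated starts of both receptor genes are shown because these genes fell furthest among the 7 measured genes. They are the only Il6st window (chr13:112463820-112464069, plus strand) and the outer of 2 Lifr windows (chr15:7129322-7129571, plus strand), which precedes a start inside the gene span given for Lifr. Neither holds the palindrome:
Il6st: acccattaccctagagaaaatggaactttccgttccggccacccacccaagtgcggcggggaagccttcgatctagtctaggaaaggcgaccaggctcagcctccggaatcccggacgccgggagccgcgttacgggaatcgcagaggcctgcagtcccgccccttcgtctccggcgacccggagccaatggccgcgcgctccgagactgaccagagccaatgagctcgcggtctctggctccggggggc
Lifr: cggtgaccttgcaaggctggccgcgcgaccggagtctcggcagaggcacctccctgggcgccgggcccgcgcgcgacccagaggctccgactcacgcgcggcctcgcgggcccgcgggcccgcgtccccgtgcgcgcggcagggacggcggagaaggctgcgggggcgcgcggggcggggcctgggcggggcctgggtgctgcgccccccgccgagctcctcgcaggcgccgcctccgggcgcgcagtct
G and C made up 82.4% of the Lifr window shown, 66% of the Il6st window and 48.4% of the Sgk1 window shown. The other Lifr window was at 50.8%, and the other Sgk1 windows ranged from 43.6% to 70.4%, so these values do not describe the genes as a whole. The median over all windows was 52.4%, with 73.6% at the 95th percentile, so the Lifr window shown is at the GC-rich end.

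Of 471 cells named in the library titles, each in 1 title only, 406 were in the table, 49.5% of them from day 0.5 and 50.5% from day 2.5. Median depth was 13670 and 15796 UMIs per cell, and the summed UMIs were 2655980 and 3186070. The authors' cell table gives each cell 1 of 3 labels of unstated meaning, called batches here. Batch 1 held 80 of the day 0.5 cells, batch 3 held 83 of the day 2.5 cells, and batch 2 held all others of both days. All 6 naive pluripotency markers that had enough UMIs were lower at day 2.5 (median log2 change -3.42). Of 4 general pluripotency markers, 3 were lower. Of 5 formative markers, 4 were higher and 1, Lef1, was lower (ratio of day 2.5 over day 0.5 of 0.505). By the same rule, given below, 24.6% of all measured genes were lower and 20.7% higher. The trophectoderm list summed to at most 21.8 CPM (counts of UMIs scaled to the same total) and the fibroblast list to at most 6.60 CPM in any set of day and batch. The primitive endoderm list summed to 24.3 and 26.4 CPM at day 0.5 and to 42.3 and 48.2 CPM at day 2.5, with Foxa2 at 0 on both days and Dab2 higher. Its part in the results below was not tested.

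No separate cultures are named, so each day is 1 sample, cells are not replicates, and no test between days was possible. Levels are UMIs summed over the cells of a day, in CPM with exact 95% Poisson intervals. Ratios of day 2.5 over day 0.5 have exact conditional 95% intervals, and shares of cells have Clopper-Pearson 95% intervals. All of them cover counting error only. A gene was measured if it had at least 20 UMIs over both days. Calls of higher or lower required a CPM ratio of at least 1.5 or its inverse, with the same direction within batch 2 and between batch 3 and batch 1. Log2 changes carry a pseudocount of 5 CPM, which shrinks the change of low genes.

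The receptor genes were lower at day 2.5, Stat3 and Sgk1 were higher, and Jak1 was not called in either direction. Of the 7 measured genes, 2 were called higher (Stat3, Sgk1), 4 lower (Lifr, Il6st, Pim1, Pim3) and 1 neither (Jak1). Among all 13777 measured genes the same rule called 20.7% higher and 24.6% lower. Calls in either direction covered 45.3% of genes, so being called is not by itself unusual here. At a ratio of 2, which called 12.99% of all measured genes higher and 13.8% lower, Sgk1 remained higher and Lifr, Il6st and Pim3 lower. The median log2 change was -0.53 over the 7 genes and -0.06 over all measured genes. Socs3 and Bcl3 had too few UMIs for a call.

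**Figure D1:**
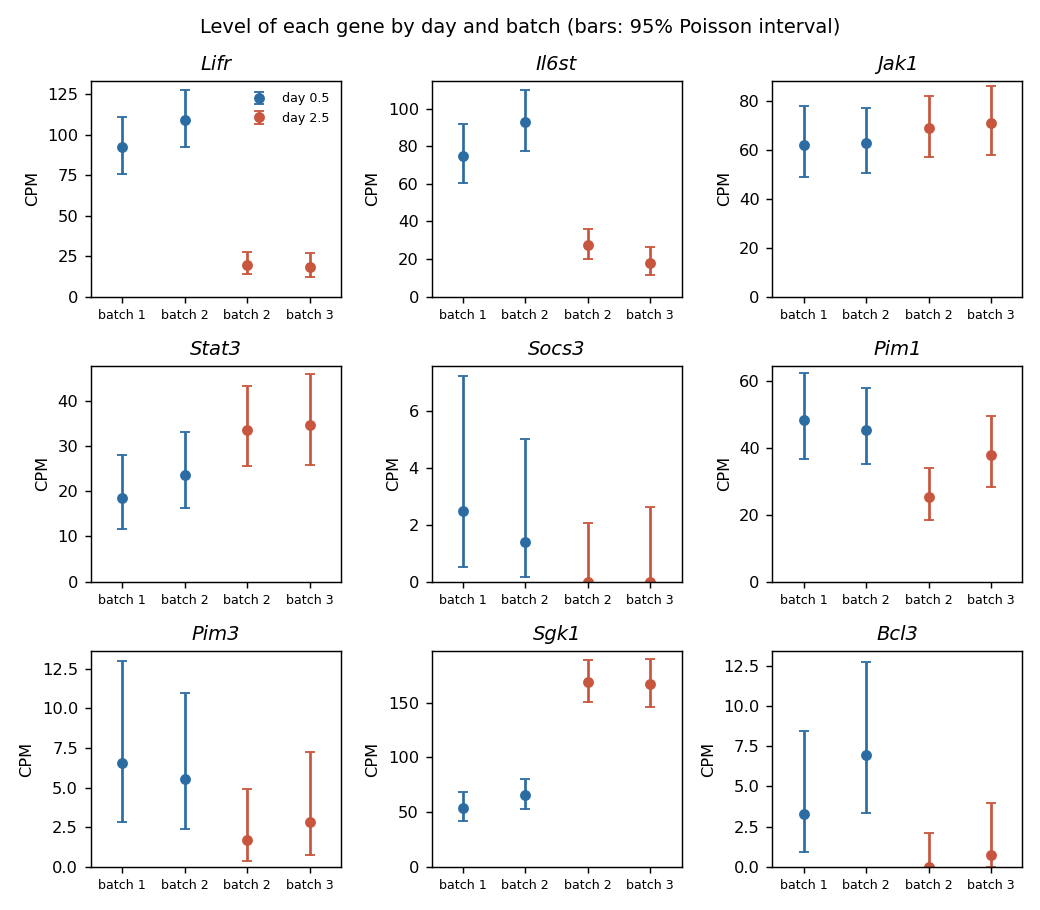
Level of each of the 9 genes in CPM (vertical axes, which start at 0 and differ by gene) in the 4 sets of day and batch; points are summed UMIs and bars are 95% Poisson intervals. For Lifr, Il6st and Sgk1 the sets of day 0.5 lie apart from those of day 2.5, whereas the 4 Jak1 values lie between 62.1 and 70.9 CPM.

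Lifr (chromosome 15, bases 7090610 to 7197489 of GRCm38) fell the furthest of the 7 measured genes. Its level was 92.1 CPM in batch 1 and 108.995 CPM in batch 2 at day 0.5. At day 2.5 it was 19.7 CPM in batch 2 and 18.4 CPM in batch 3. The levels of the 2 days and their intervals did not overlap, and the sets of a day differed by much less than the days did. How many of all genes have levels that separate by day in this way was not counted, so separation alone is not read as a result. Summed over the cells, 269 UMIs at day 0.5 and 61 at day 2.5 gave 101.3 CPM (89.5 to 114.1) and 19.1 CPM (14.6 to 24.6). The fall was 5.29-fold (ratio 0.189, interval 0.141 to 0.250; log2 change -2.14). Of all measured genes, 1.31% had a lower log2 change.

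Il6st (chromosome 13, bases 112464070 to 112506860), the gp130 gene, fell alongside it. Day 0.5 gave 74.9 CPM in batch 1 and 92.7 CPM in batch 2, and day 2.5 gave 27.3 CPM in batch 2 and 17.7 CPM in batch 3. The days did not overlap, and within day 2.5 batch 2 was 1.54 times as high as batch 3. The sums were 84.5 CPM (73.8 to 96.3) and 23.1 CPM (18.1 to 28.98), a 3.66-fold fall (ratio 0.273, interval 0.207 to 0.357; log2 change -1.67). The intervals of the Lifr and Il6st ratios overlapped each other.

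Fewer cells had a UMI of either receptor gene at day 2.5. Lifr was seen in 58.2% of cells at day 0.5 (interval 51.1 to 65.1%) and in 41 cells or 20% at day 2.5 (14.8 to 26.1%). Il6st was seen in the same share of cells at day 0.5 and in 47 cells or 22.9% (17.4 to 29.3%) at day 2.5. Thinning every cell to 5000 UMIs left out 7 cells per day and gave shares of 35.3% and 8.06% for Lifr and 31.5% and 9.98% for Il6st. In both batches of a day the shares lay close together, at 62.5% and 55.4% for Lifr at day 0.5 and at 18.9% and 21.7% at day 2.5. UMIs of both chains in the same cell, the pair that makes up the LIF receptor, were present in 78 cells at day 0.5 (38.8%, 32.03 to 45.9%) and in 12 cells at day 2.5 (5.85%, 3.06 to 10.002%). Cells with neither made up 22.4% at day 0.5 and 62.9% at day 2.5. Fewer cells with both would follow from the lower share of each gene alone, and a joint loss beyond that was not tested. A cell without a UMI may still hold the RNA, since a UMI is caught from only some molecules.

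**Figure D2:**
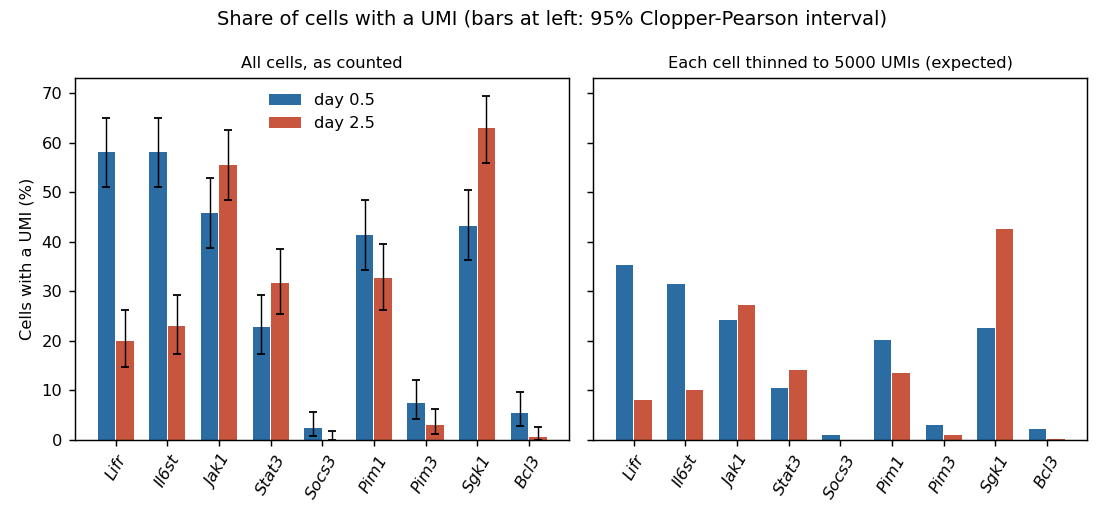
Share of cells (vertical axis, %) with a UMI of each of the 9 genes at day 0.5 (blue) and day 2.5 (red), as counted with 95% Clopper-Pearson intervals (left) and at a depth of 5000 UMIs in each cell (right). Lifr falls from 58.2% to 20% of cells and Sgk1 rises from 43.3% to 62.9%, and the direction is the same after thinning.

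Jak1 (chromosome 4, bases 101151974 to 101265282), the receptor-bound kinase, was not called. Its 4 values were 62.1 and 62.8 CPM at day 0.5 and 68.7 and 70.9 CPM at day 2.5, in the order of batches used above. The 4 values lay close together, and their intervals overlapped. The ratio was 1.11 with an interval of 0.908 to 1.37, so a rise of up to 1.37-fold or a small fall lies within counting error. Jak1 UMIs were seen in 45.8% of cells at day 0.5 and in 55.6% at day 2.5, and in 24.1% and 27.3% after thinning. The gene shares 397 bases with Raver2, which was at 16.6 and 86.5 CPM on the 2 days, and the sources used here do not say whether strand was used in counting.

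Stat3 (chromosome 11, bases 100886806 to 100939594), the transcription factor itself, was called higher. It was at 18.5 and 23.6 CPM at day 0.5 and at 33.5 and 34.7 CPM at day 2.5. The days did not overlap. Summed, 56.5 and 108.5 UMIs gave 21.3 CPM (16.1 to 27.6) and 34.1 CPM (27.9 to 41.1), a 1.60-fold rise (1.15 to 2.25; log2 change 0.57). Within batch 2 alone the ratio was 1.42 with an interval of 0.917 to 2.23, which is under the size needed for a call. The call was also lost in only the cells of the chrX allele table and at a ratio of 2. Stat3 UMIs were in 22.9% of cells at day 0.5 and 31.7% at day 2.5, and in 10.6% and 14.1% after thinning. Jak1 and Stat3 were seen together in 19 cells at day 0.5 and in 34 at day 2.5.

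Socs3 (chromosome 11, bases 117966079 to 117970336), which encodes the inhibitor of the gp130 complex that Stat3 itself induces, was near the limit of detection. It had 3 and 2 UMIs in batches 1 and 2 at day 0.5 and none in either batch at day 2.5. These 5 UMIs are 1.88 CPM, and the interval of the ratio ran from 0 to 0.910. A UMI was present in 5 cells at day 0.5 (2.49%) and in 0 cells at day 2.5, a count that leaves room for a share of cells with a UMI of 1.46% by a limit of 3 counts, or of 1.78% by the Clopper-Pearson bound. Genes of distant adult tissues gave similar numbers, with Alb in 5 cells and Ptprc in 6 cells at day 0.5. Myh6 was in 7 cells at day 2.5. The Socs3 counts thus cannot be told from background, and gene spans were not taken into account.

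The 3 kinase genes described as LIF targets did not move together. Sgk1 (chromosome 10, bases 21882184 to 21999903), whose kinase acts downstream of PI3K and mTORC2, had the largest rise of the 9 genes. Its level was 53.7 and 65.8 CPM in batches 1 and 2 at day 0.5. At day 2.5 it was 169.02 CPM in batch 2 and 166.8 CPM in batch 3. The days lay far apart, and the sets of day 2.5 were nearly equal. The sums were 60.3 CPM (51.3 to 70.4) and 168.02 CPM (154.1 to 182.9), a 2.79-fold rise (2.33 to 3.35; log2 change 1.41). Within batch 2 the rise was 2.57-fold (2.03 to 3.27). The share of cells with a UMI went from 43.3% (36.3 to 50.4%) to 62.9% (55.9 to 69.6%), or from 22.5% to 42.5% after thinning.

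The rise of Sgk1 was uneven between cells. Cells with at least 5 UMIs of Sgk1 numbered 1 at day 0.5 and 42 at day 2.5, and the highest cell held 8 and 18 UMIs. If all cells of day 2.5 had the same Sgk1 level, 89.4% of them would have shown a UMI at their depths, against the 62.9% observed. The spread between cells, as the mean squared deviation over the expected count, was 4.24 for Sgk1 at day 2.5. Its median was 1.93 over the 1372 genes with UMI sums within 1.5 times that of Sgk1, and 92.9% of them had a smaller spread. At day 0.5 the spread of Sgk1 was 1.56, close to the median of 1.47 among 2200 genes with like sums. For Stat3 at day 2.5 it was 1.95 against 1.44, above 83.6% of genes with like sums. For Lifr at day 0.5 it was 1.88 against 1.60, and for Jak1 it was 1.58 against 1.47 at day 0.5 and 1.67 against 1.60 at day 2.5. For Il6st at day 0.5 it was 1.38 against 1.55, and for Pim1 at day 0.5 it was 1.44 against 1.42.

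**Figure D3:**
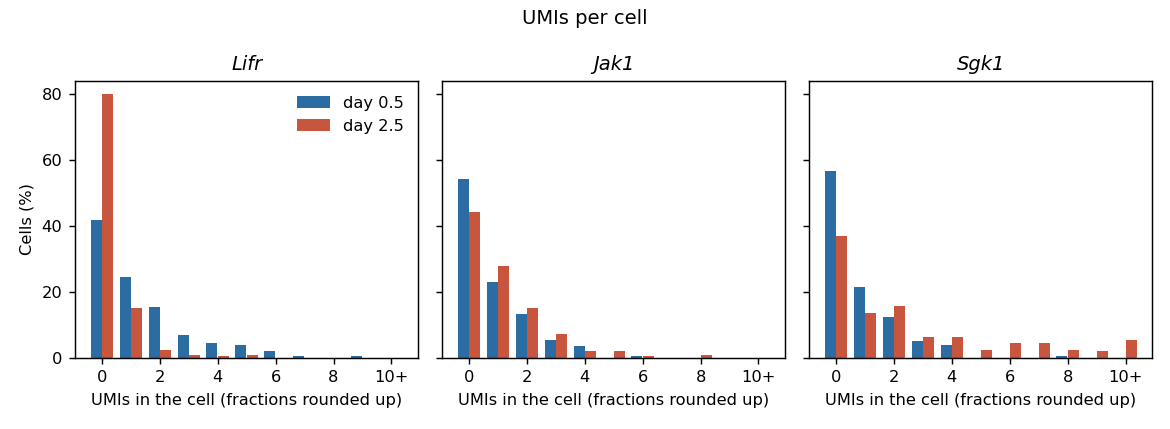
Share of cells (vertical axis, %) by the number of UMIs of Lifr, Jak1 and Sgk1 in the cell (horizontal axis, fractions rounded up) at day 0.5 (blue) and day 2.5 (red). For Sgk1 a long right tail appears at day 2.5, up to 18 UMIs in 1 cell, while 37.1% of the cells have none; for Lifr 80% of cells have none at day 2.5.

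Pim1 (chromosome 17, bases 29490785 to 29496111), a kinase that promotes survival and growth, was called lower by a small margin. Its level was 48.3 and 45.5 CPM at day 0.5 and 25.4 and 37.9 CPM at day 2.5. These values did not overlap between the days, but the sets of day 2.5 lay as far apart as the days did. The interval of batch 1 at day 0.5 (36.8 to 62.4 CPM) overlapped that of batch 3 at day 2.5 (28.4 to 49.5 CPM). The sums were 46.8 CPM (38.9 to 55.8) and 30.9 CPM (25.1 to 37.7), a ratio of 0.661 (0.502 to 0.868; log2 change -0.53). The ratio between batch 3 and batch 1 was 0.784, which is short of a call. The call was also lost at a ratio of 2 and in each of 4 other settings, which were median-ratio scaling, only cells with the letter B in their name, only cells of the chrX allele table, and no cells of the authors' M class. Pim1 shares 760 bases with Gm26885, which was at 52.9 and 18.8 CPM. Cells with a UMI of Pim1 made up 41.3% at day 0.5 and 32.7% at day 2.5, and 20.1% and 13.4% after thinning.

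Pim3 (chromosome 15, bases 88862194 to 88865726), its close relative, was called lower on few UMIs. It had 8 UMIs in each batch at day 0.5, and 3 and 4 UMIs in batches 2 and 3 at day 2.5. The ratio was 0.365 with a wide interval of 0.127 to 0.937. Its 7 UMIs at day 2.5, 2.20 CPM in 6 cells (2.93%), are no more than those of Myh6, also 7 UMIs. That count cannot be told from background, and gene spans were not taken into account. Pim3 was not called within batch 2, for batch 3 against batch 1 or in the letter B cells, where it had too few UMIs. Bcl3 (chromosome 7, bases 19808462 to 19822824) had 4 and 10 UMIs in batches 1 and 2 at day 0.5 and 0 and 1 UMI in batches 2 and 3 at day 2.5. Its ratio was 0.0595 (0.00141 to 0.391), but 15 UMIs in all are short of the minimum for a call. Bcl3 was seen in 11 cells at day 0.5 (5.47%, 2.76 to 9.58%) and in 1 cell at day 2.5 (0.488%, 0.0123 to 2.69%). The genes of distant tissues reached a share of 3.41% (1.38 to 6.91%), an interval that overlaps that of Bcl3 at day 0.5.

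Levels of different genes were set against each other per kb of RefSeq gene span, since most UMIs lay outside exons (26.3% and 24.2% on exons). On that scale Pim1 was highest on both days, with 8.78 CPM per kb at day 0.5 and 5.80 at day 2.5. At day 0.5 Il6st (1.98 CPM per kb), Pim3 (1.71) and Lifr (0.948) followed. The interval of Pim3 overlapped those of both receptor genes, which lay apart from each other. Below them came Jak1 (0.552 CPM per kb), Sgk1 (0.512), Stat3 (0.403) and Bcl3 (0.367), with overlapping intervals between neighbours. At day 2.5 Sgk1 stood in the place behind Pim1, with 1.43 CPM per kb. It was followed by Stat3 (0.645), Jak1 (0.615) and Il6st (0.539), whose intervals overlapped. Lifr (0.179 CPM per kb) was below these. Socs3 on both days and Pim3 and Bcl3 at day 2.5 were not ranked, since their counts were no higher than those of genes of distant tissues. Those counts were compared without regard to gene span. Per kb, Socs3 was at 0.442 CPM at day 0.5 on 5 UMIs and Pim3 at 0.622 CPM at day 2.5 on 7 UMIs. At day 0.5 Il6st was thus above Jak1 and Stat3 per kb, and at day 2.5 it was level with them within counting error. The scale favours short genes with few introns and lowers genes whose span reaches to a distant start, as that of Sgk1 does. The span of Lifr likewise begins at base 7090610, before both of its promoter windows, so its place depends on the span used.

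The authors' cell cycle classes changed in share between the days, with 41 G1 cells at day 0.5 and 82 at day 2.5 and 87 and 62 Mid-S cells, so the genes were also compared within classes. Lifr was lower at day 2.5 in each of the 4 classes with at least 10 cells on both days. The ratio was 0.209 in G1 (0.123 to 0.347), 0.356 in Early-S, 0.0946 in Mid-S (0.0442 to 0.180) and 0.210 in Late-S. The ratios of Il6st were 0.480 in G1 (0.296 to 0.781), 0.156 in Early-S, 0.254 in Mid-S and 0.180 in Late-S. All 8 of these intervals stayed below 1.

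Sgk1 was higher at day 2.5 in the same 4 classes, with a ratio of 3.81 in G1 (2.54 to 5.93), 3.597 in Early-S, 2.57 in Mid-S and 1.59 in Late-S, where the interval of 0.897 to 2.84 held 1. Stat3 was at 34.2 CPM at day 0.5 and 32.9 CPM at day 2.5 in G1 (ratio 0.962, 0.529 to 1.82), and at 17.9 and 32.6 CPM in Mid-S (ratio 1.82, 1.04 to 3.26). In Early-S the ratio of Stat3 was 2.18 (0.721 to 6.88) and in Late-S 2.52 (0.786 to 9.41), so it was above 1 in 3 of the 4 classes. All 4 intervals overlap, so a difference between the classes is not detectable at this depth. The ratio of Jak1 lay between 1.04 and 1.40 in the 4 classes, and each of its intervals held 1. For Pim1 it was 0.846 in G1 and 0.575 in Mid-S (0.333 to 0.969).

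**Figure D4:**
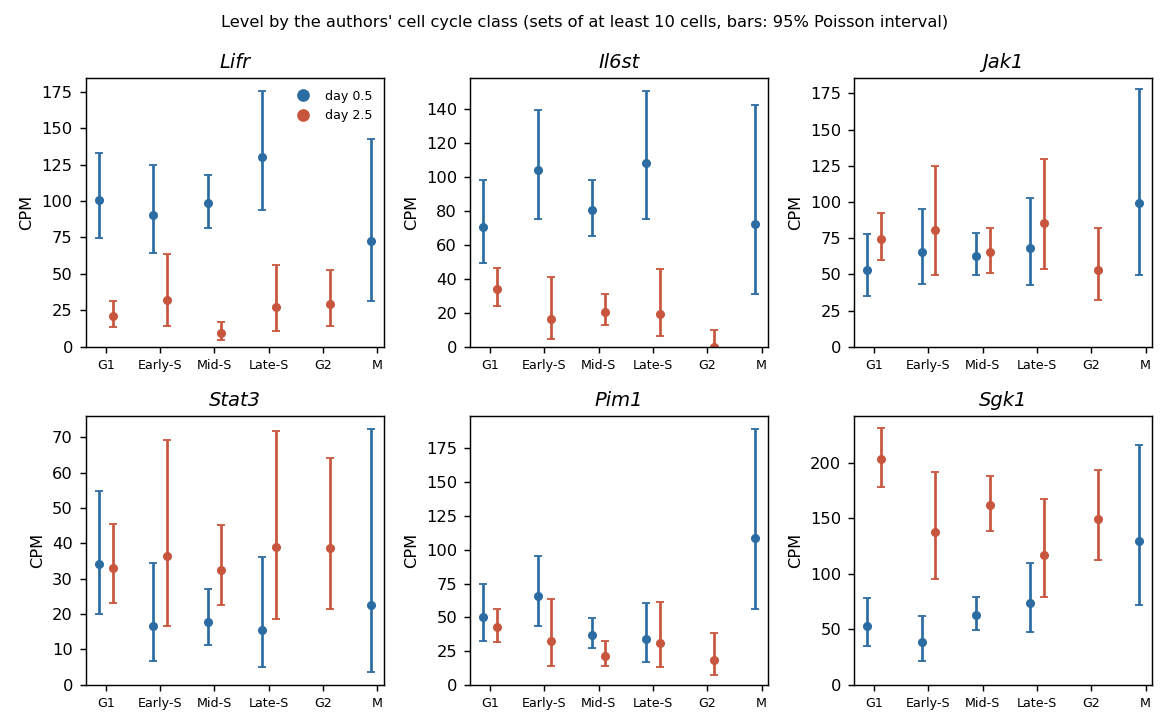
Level in CPM (vertical axes, which start at 0) of the 6 genes with at least 100 UMIs by the authors' cell cycle class at day 0.5 (blue) and day 2.5 (red), with 95% Poisson intervals, for sets of at least 10 cells. Lifr and Il6st are lower and Sgk1 higher at day 2.5 in each class with both days, and Stat3 in G1 is at 34.2 and 32.9 CPM.

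For the 6 genes with at least 100 UMIs, the genes with the most similar pattern were sought among 7716 genes with at least as many. The measure was Pearson's r of log2(CPM + 5) over the 10 sets of day and cell cycle class that had at least 10 cells, which share libraries and depth, so r is given as a description. Mme (0.98), Pigl (0.97) and Mpzl1 (0.97) were most like Lifr, and Atp2b4, Senp3 and Gm49504 (0.96 each) were most like Il6st. Lifr and Il6st had r = 0.72 with each other. For Sgk1 they were Usp44 (0.97), Rnf19a (0.97) and Creb1, for Stat3 Pkp2 (0.95), Klhdc2 and Gsk3b, for Jak1 Rnf11 (0.93), Eno1 and Esf1, and for Pim1 Wdyhv1 (0.97), Atg13 and Tipin. Pkp2 was at 23.3 CPM at day 0.5 and 78.8 CPM at day 2.5, and Mme at 159.8 and 50.2 CPM. With 10 sets that fall mainly into the days, many genes that differ between days reach a high r.

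Other genes around the pathway were read with the same rule, which called 20.7% of all measured genes higher and 24.6% lower. Of 12 ligands and receptors of the gp130 family, 3 were measured and 2 were called lower (median log2 change -0.38). Cntfr, the ciliary neurotrophic factor receptor chain that signals through Lifr and gp130, fell from 41.2 to 5.81 CPM (ratio 0.141, 0.0811 to 0.232). This interval overlapped that of Lifr (0.141 to 0.250). At day 0.5 Cntfr was at 26.3 CPM in batch 1 and 53.8 CPM in batch 2. Within batch 2 its ratio was 0.0890, against 0.181 for Lifr. Il6ra, the interleukin 6 receptor chain, was called lower with 6.40 and 3.77 CPM, and its interval held 1. Il11ra1 was at 8.28 and 6.12 CPM. The 8 ligand genes, Lif among them with 0 and 2 UMIs, were all under the minimum.

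Of the 9 other JAK and STAT genes, 6 were measured, 3 were called higher and 2 lower (median log2 change 0.29). Over all measured genes the shares were 20.7% and 24.6%. Stat5b rose from 11.9 to 23.9 CPM (ratio 2.01, 1.31 to 3.15) and Jak2 from 10.5 to 17.9 CPM (ratio 1.70, 1.06 to 2.77). Tyk2, another kinase that binds gp130, fell from 33.1 to 18.2 CPM and Stat4 from 29.9 to 18.7 CPM. Stat2 was at 24.7 and 29.5 CPM. Of these 5 calls, 2 remained within batch 2 alone, Stat5b and Tyk2. Between batch 3 and batch 1 these 2 were short of the size needed for a call. Stat5b was at 16.9 CPM in batch 1 and 22.3 CPM in batch 3, and Tyk2 at 30.9 and 23.4 CPM. Jak2 (9.87 and 21.97 CPM) and Stat4 (30.03 and 15.2 CPM) reached that size there but not within batch 2. At day 0.5 Stat5b was at 7.64 CPM in batch 2, so its level also differed between the batches of that day.

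Of 15 negative regulators, 13 were measured, 2 were called higher and 3 lower, with a median log2 change of -0.04. These counts are near the shares of all measured genes, 20.7% higher and 24.6% lower. Socs2, a SOCS protein known for restraining growth hormone signalling, fell from 259 to 68.4 CPM (ratio 0.264, 0.226 to 0.308), and Socs1 had no UMI on either day. Pias2, a SUMO ligase of the family named for inhibiting STATs, fell from 1626 to 451 CPM, and Pias4 from 17.9 to 10.2 CPM. Socs6 rose from 51.2 to 81.0 CPM. Ptpn11, the phosphatase SHP2 that binds gp130 and feeds the MAPK branch, rose from 62.5 to 99.3 CPM. Pias1 (238.3 and 313.6 CPM), Ptpn2 (197.9 and 179.5 CPM) and Socs7 (67.2 and 61.5 CPM) were not called.

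Genes described as targets of LIF and STAT3 in embryonic stem cells were mostly lower, and Tbx3 among them is also in the list of naive markers. Of 10, 7 were measured, 5 were called lower and 0 higher, with a median log2 change of -1.88. Over all measured genes 24.6% were called lower and 20.7% higher. The list was chosen with earlier results of these data known, so its counts are given as a description. The transcription factor genes Tfcp2l1 (65.7 to 5.96 CPM), Klf4 (20.3 to 1.88 CPM), Klf5 (137.05 to 11.5 CPM) and Tbx3 (57.2 to 2.51 CPM) fell 10-fold or more. Pramel7 fell from 18.8 to 6.91 CPM. Smad7 (102.6 and 107.97 CPM) and Mcl1 (86.97 and 87.7 CPM) were at like levels on both days.

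In the PI3K and MAPK branches, which also run from gp130, 11 of 13 genes were measured. Among them 2 were called higher and 2 lower, with a median log2 change of 0.04. These counts too are near the shares of all measured genes, 20.7% higher and 24.6% lower. Pik3ca rose from 96.1 to 153.01 CPM. Pik3cb (262 to 90.9 CPM) and the adaptor gene Gab1 (522 to 295 CPM) fell. Map2k1 (242 and 276 CPM) and Sos1 (183.7 and 181.3 CPM) were not called.

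Relatives and partners of the target genes gave 6 measured of 8, with 2 called higher, 3 lower and a median log2 change of -0.12. Over all measured genes 20.7% were called higher and 24.6% lower. Pim2 rose from 136.5 to 422 CPM (ratio 3.09, 2.75 to 3.48), so within the Pim family Pim2 rose and Pim1 and Pim3 were called lower. Sgk3 rose from 20.7 to 48.7 CPM (ratio 2.35, 1.72 to 3.26), the same direction as Sgk1. The NF-kappa-B subunit genes Nfkb1 (97.7 to 56.3 CPM), Relb (24.1 to 11.1 CPM) and Rela (8.09 to 3.92 CPM, with an interval that held 1) were called lower. Nfkb1 encodes the precursor of p50, to which the Bcl3 protein binds, and Nfkb2, the gene of the related p52, was under the minimum with 3 and 4 UMIs. Rel was at 3.20 and 5.18 CPM.

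**Figure D5:**
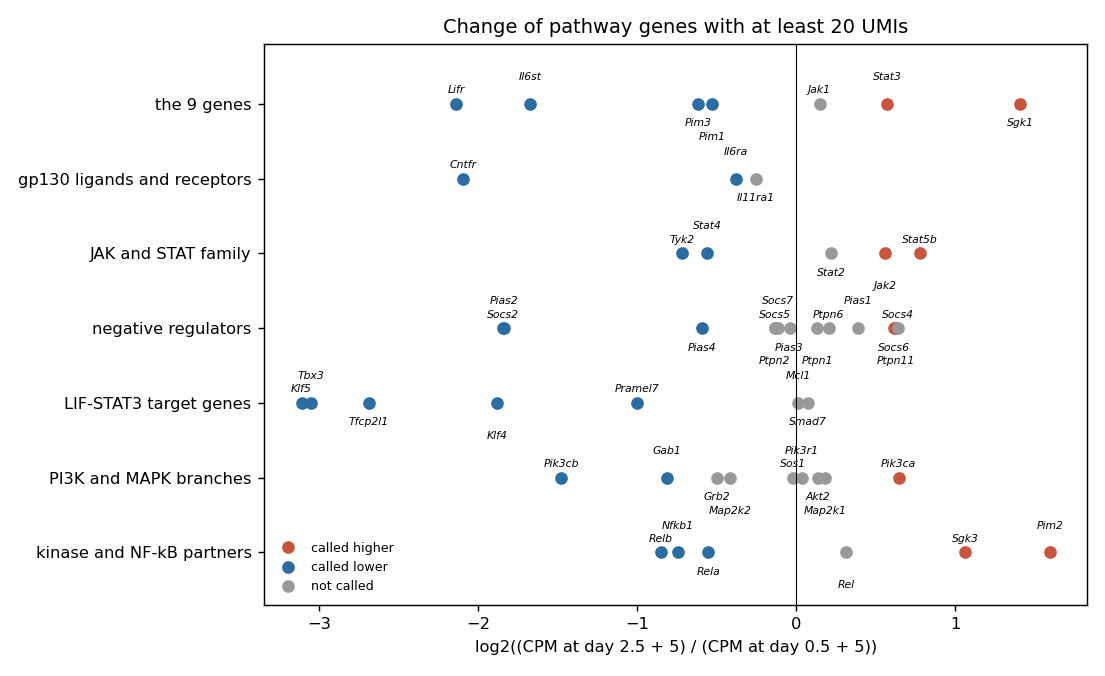
Log2 change from day 0.5 to day 2.5 with a pseudocount of 5 CPM (horizontal axis) of reported genes with at least 20 UMIs, for the 9 genes and the 6 further lists (vertical axis); red points are called higher, blue points lower and grey points neither. All 5 target genes called lower lie to the left of Pim3, whereas Sgk1 is at 1.41 and Pim2 at 1.59.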

How the data were processed

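The authors' expression table holds deposited expected counts, UMIs per gene and cell, mostly whole (11.1% of values above 0 are fractions; 0 to 4% for the 9 genes), per the file headers and values. The authors' cell tables give counts of UMIs on exons per cell, the day, the batch label, a cell cycle class (other labels without a unit) and, for the cells of the deposited chrX allele table, a pseudotime score. The genome was GRCm38, per the submitters' processing notes, and the sources used here do not name the aligner, counter, strand setting or cell filters. The table has 201 cells of day 0.5 (121 in batch 2) and 205 of day 2.5 (122 in batch 2), matched by the names in the titles of 236 libraries, and 1101 columns of other cells were not used. No doublet caller was run and no cell was filtered.

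UMIs were summed as deposited over the cells of a day and scaled to the same total (CPM). Alternatives covered scaling, pseudocount (1 CPM), means over cells, depth, batches, cell-name letters A and B, cells of the allele table, M-class cells, small fractions, a ratio of 2 and no minimum. The 9 genes and the lists were chosen with earlier results of these data known. Named are all 9 genes, each list's called genes (the 5 with the most UMIs beyond that), up to 3 uncalled genes with the most UMIs, and the 3 most similar genes of each gene with at least 100 UMIs, except 3 list genes that enter the counts and are otherwise not reported here. Python 3.11.15, numpy 2.4.6, scipy 1.17.1, pandas 2.3.3 and matplotlib 3.10.9 were used. The calls were run on simulated data that held counting error only. Those data had no spread between cells beyond depth and no differences between batches, so they cannot show how the calls behave under either.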

Additional observations from a re-analysis of the deposited data

How the results depend on the processing

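No paired analysis was possible because each day is 1 sample, no test was made and replicate numbers only name libraries. Across 11 alternatives, 97 of 99 log2 changes of the 9 genes moved by no more than the counting interval of their ratio. None that was called turned its sign. For Socs3, with a ratio of 0, no bounds could be set on the log scale, so its values could not count as moved. With a pseudocount of 1 CPM, Socs3 was at -1.53 instead of -0.46. Bcl3, whose interval is wide, was then at -2.25 instead of -0.95. Bcl3 had no UMI in the letter B cells and was at 0 there. With the letter B cells, Jak1 was at -0.20 and Sgk1 at 1.87. The ratio ranged from 0.181 to 0.204 for Lifr, 0.220 to 0.295 for Il6st, 2.57 to 3.97 for Sgk1, 1.42 to 1.88 for Stat3 and 0.558 to 0.784 for Pim1. The number called higher was 1 (Sgk1) within batch 2, in cells of the allele table and at a ratio of 2. The number called lower was 2 (Lifr, Il6st) for batch 3 against batch 1, where the median log2 change was -0.068, and with letter B. With no minimum, the gp130 list had 2 called higher and 5 lower and the JAK and STAT list 4 lower. Within batch 2, 1 gp130 gene was called lower, 1 JAK or STAT gene higher and 1 lower, and 1 PI3K or MAPK gene higher. Fewer cells entered the settings by batch, letter and allele table, while the other settings changed the rule; beyond this the cause of each change was not tested. The median log2 change of all genes, -0.06, was -0.01 after median-ratio scaling. Thinning lowered 15 of 18 shares of cells beyond counting error, as fewer UMIs must. Depth limits Socs3, Bcl3 and Pim3.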

Other observations

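The authors' pseudotime was available for the cells of the chrX allele table, without a statement of how it was made. At day 0.5, Lifr was at 118.96 CPM in the 93 earlier and at 87.2 CPM in the 93 later cells (ratio 0.733, interval 0.569 to 0.943). For Il6st the ratio was 1.07 (0.816 to 1.42) in the same cells. At day 2.5 Sgk1 was at 187.05 CPM in the 61 earlier and 177.8 CPM in the 61 later cells.

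The 15 day 0.5 cells outside the allele table had more Pim1 (108.5 against 44.1 CPM, ratio 2.46, 1.23 to 4.47) and more Sgk1 (129.7 against 57.3 CPM, ratio 2.26, 1.22 to 3.90) than those inside it. The M class at day 0.5 matched these 15 cells in number, in median depth and in the UMIs of every gene described here. Its median was 5818 UMIs per cell against 13670 over all cells of that day. The higher Pim1 and Sgk1 are therefore also those of M-class cells of low depth against the other cells. Whether class or depth plays a part was not tested. At day 2.5 the 83 cells outside the allele table had less Sgk1 than those inside (147.8 against 182.3 CPM, ratio 0.811, 0.676 to 0.969).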
